A study of Salmo salar with 51 samples.

Results

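The last step of an Atlantic salmon developmental series was examined, in which parr at 89 days post fertilization (dpf) were compared with parr at 83 dpf. RNA of 3 whole individuals at each time point was labelled with Cy5 and hybridized, 1 individual per array, against a Cy3-labelled reference pool made from all 17 time points, so that 6 of the 51 arrays of the series entered the comparison. The fish were of the McConnell (Mowi) strain and were reared in fresh water at 12 °C with no treatment at either age. The labels call the 3 fish of an age biological replicates, and their sex is not stated. Every value below is a log2 ratio of an individual to the pool (Cy5/Cy3), and a difference of 1 between ages is therefore a fold change of 2. A probe, which the study calls an entity, entered if all 3 arrays of 89 dpf, or all 3 of 83 dpf, had an unflagged Cy5 signal of 500 or more. This kept 13277 of 43689 probes, of which 11937 passed on the 89 dpf arrays and 11812 on the 83 dpf arrays. Of these, 5 had no usable spot at one of the ages, and 13272 were tested.

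By this age the yolk is gone and a young salmon lives on what it eats. The gastric glands of a fish stomach secrete acid together with pepsinogen, which the acid turns into the protease pepsin, and chitinase, which attacks the shells of arthropod prey. Skeletal muscle is the main protein store of the body. Its breakdown runs through ubiquitin ligases such as TRIM63 (MuRF1) and FBXO32 (atrogin-1), which mark proteins for the proteasome, and through autophagy, in which parts of the cell are enclosed and delivered to lysosomes. In mammals, FoxO transcription factors switch on both routes when growth signals from insulin-like growth factor and growth hormone are weak.

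Most probes described as digestive enzymes of the stomach were called higher at 89 than at 83 dpf. Those called lower included ubiquitin ligases of muscle, an autophagy light chain and GADD45 proteins. The growth hormone receptor was called lower too, but only just under the threshold, and the call was lost whichever array was left out. A probe was called when its adjusted p was under 0.05 and its fold change at least 2. This held for 230 of the 13272 probes tested (1.73%), of which 74 (0.558%) were higher and 156 (1.18%) were lower at 89 dpf. The median difference was 1.38 among the probes called higher and -1.61 among those called lower, beside 0.03 over all probes tested, and at least 4-fold changes were found in 14 probes called higher and 34 called lower. The log ratios of the ages did not overlap for 224 of the 230 called probes, as against 17.6% of all probes tested. At an unadjusted p of at most 0.01 in the fit of all 51 arrays, with the same fold change, 414 probes (3.12%) passed. The study set the same limits on a different test, which called 67 probes here. Median centring of the arrays in place of loess called 129 probes, of which 17 (13.2%) were higher, where 32.2% of the 230 were. The supplementary lists of the study gave a gene description for 90 of the called probes, 36 higher and 54 lower. The other 140 had no gene description here, some only the name of a protein domain. The study's lists hold only probes that it called changed between successive ages, this pair included, so described probes were already selected for change. The shares of described probes called below are shares of selected probes, and counts of a gene's probes cover described ones only. RNA came from whole fish, so that fewer cells of a type and less RNA per cell cannot be told apart.

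**Figure D1:**
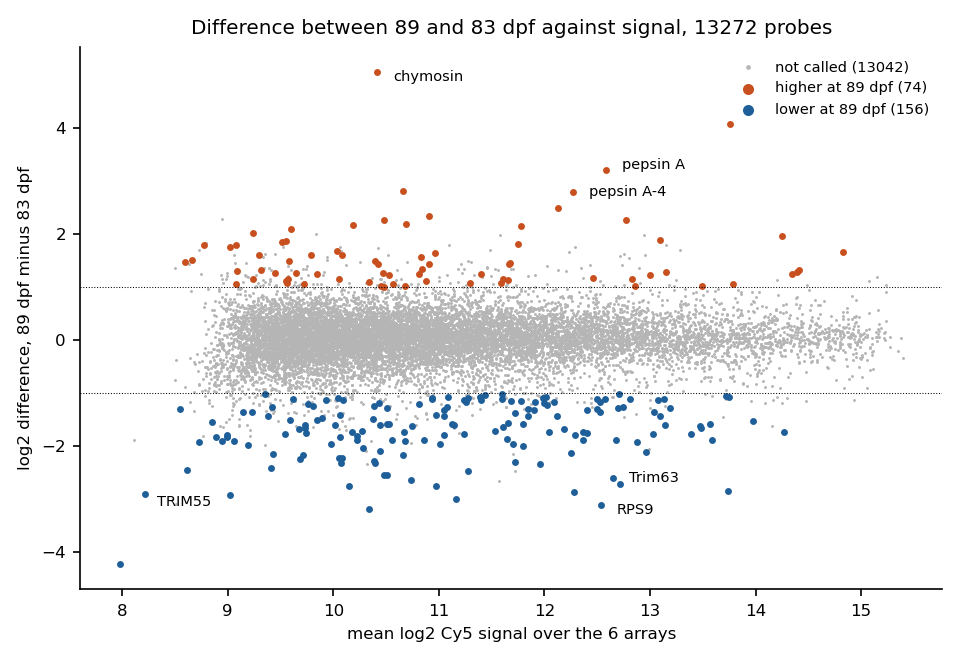
Log2 difference (89 dpf minus 83 dpf) of each of the 13272 probes tested, on the y axis, against its mean log2 Cy5 signal over the 6 arrays, on the x axis. Orange points are the 74 probes called higher and blue points the 156 called lower at 89 dpf, grey points were not called, and dotted lines mark a 2-fold change. Chymosin stands highest among them with a difference of 5.05.

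The number of calls depended on which individuals were included. It was 134 without 89 dpf individual 1, 84 without 89 dpf individual 2, 97 without 83 dpf individual 1 and 137 without 83 dpf individual 2. Leaving out individual 3 of either age gave more calls instead, 269 without that of 89 dpf and 313 without that of 83 dpf. In the falls, individual 3 was also most often the one nearest to the other age. Among 155 probes called lower and measured on all 3 arrays of an age, the 89 dpf fish nearest to the 83 dpf mean was individual 3 for 102 probes, and the 83 dpf fish nearest to the 89 dpf mean was individual 3 for 117. Those 2 fish were hybridized on the same slide, and the root mean square difference between their arrays was 0.49. It was 0.51 between 89 dpf individual 3 and 83 dpf individual 2, which lay on different slides, 0.54 between any pair of 89 dpf fish and 0.49 to 0.75 between pairs of 83 dpf fish. On that shared slide alone, the median difference was 0.91 for the probes called higher and -0.89 for those called lower. These 2 arrays are among the 6 that made the calls, so that the direction there is no further evidence. With the slide as a fixed block, 103 probes were called. The first individual of either age was hybridized on a dimmer array, with a median Cy5 signal of 224 at 89 dpf and 220.5 at 83 dpf, where the other 4 arrays had between 351 and 403.

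Of the probes described as proteases or chitinase of the stomach, 5 of 7 rose and none fell, and the median difference of the 7 was 2.26. Over the 3125 tested probes with a gene description the median was 0.07, and 2.88% were called. This list and those below were chosen with earlier results of these data known. Neither the direction of a list nor its share called therefore carries weight of its own. The count was 3 when all 6 arrays had to reach 500, 3 with limma on the 6 arrays alone and 2 with the methods' t-test at its unadjusted threshold. The study's own list for this pair of ages, drawn from the same arrays, holds 2 of the 7. Chymosin (CYM, probe C143R007), an aspartic protease that clots milk in the stomach of young mammals, had log2 ratios of 3.26, 4.85 and 2.76 at 89 dpf, against -1.25, -0.44 and -2.61 at 83 dpf. The lowest 89 dpf fish was thus more than 3 log2 units above the highest 83 dpf fish. The fitted difference was 5.05 ± 1.01 (SE), or 33.2-fold (adjusted p = 0.00258). Its size is uncertain at the low end, because the Cy5 signal, 3830 to 23645 at 89 dpf, was under 500 on 2 of the 3 arrays of 83 dpf, with 679 on the other and 157 on the lowest. It stayed past the threshold whichever of the 6 arrays was left out, but only just without 89 dpf individual 2 (adjusted p = 0.0494). With individual 2 left out at both ages it was not called (adjusted p = 0.0766). However, it passed the signal filter through 89 dpf only, where it was high, and that filter stayed fixed when arrays were left out.

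Pepsin was the description of 2 probes, and both rose. Pepsin A-4 (PGA, C151R023) had log2 ratios of 2.76, 3.04 and 2.80 at 89 dpf, against 1.4, 0.82 and -2.01 at 83 dpf. The 89 dpf fish lay close together, whereas 83 dpf individual 3 was far below the other 2 fish of its age. The difference of 2.79 ± 0.51 (SE, adjusted p = 0.00107) became 1.75 without that fish and was still called. The SD at 83 dpf was 1.83, whereas the SE draws on the spread at all time points. With limma on the 6 arrays alone the probe was not called (adjusted p = 0.0885). The second pepsin A probe (PGA, C206R001) had 1.5 and 1.25 in 89 dpf individuals 1 and 3, against -1.20, -1.41 and -2.84 at 83 dpf. The spot of 89 dpf individual 2 was flagged and left out, so that the difference of 3.19 ± 0.71 (SE, adjusted p = 0.00798) rests on 2 fish at that age, and the call was lost without individual 1 (adjusted p = 0.101).

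Acidic mammalian chitinase (CHIA), the stomach enzyme that cleaves chitin, was the description of 4 probes, which did not all move alike. Probe C189R027 had 2.04, 2.56 and 1.96 at 89 dpf, against 0.46, 0.64 and -1.31 at 83 dpf, a difference of 2.26 ± 0.54 (SE, adjusted p = 0.0147). Probe C052R001 had 2.32, 2.54 and 1.93 at 89 dpf, against 1.33, 0.86 and -1.28 at 83 dpf, a difference of 1.96 ± 0.50 (SE, adjusted p = 0.0267). In both, 83 dpf individual 3 was again the lowest fish, and neither was called without it (differences of 1.64 and 1.17, adjusted p = 0.144 and 0.273). Neither was called without 89 dpf individual 2, and C052R001 was not called without 89 dpf individual 1. Probes C010R051 and C219R156 differed by 0.51 ± 0.34 and 0.34 ± 0.62 (SE), below the threshold (adjusted p = 0.706 and 0.965). Salmonid genomes carry many genes in several copies, and whether the 4 probes read different copies was not tested. Without single fish the count of 5 stomach probes fell to 3, which was the case without 89 dpf individual 1, 89 dpf individual 2 or 83 dpf individual 3. With individual 1, 2 or 3 left out at both ages, it was 1, 1 and 2.

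Enzymes that act further down the gut were not called. Of 4 tested probes for pancreatic and intestinal digestion, none passed the threshold, and their median difference was 0.23. The smallest p among them was that of GP2 (C083R026), the main membrane glycoprotein of pancreatic secretory granules. It had 1.45, 2.03 and 1.26 at 89 dpf, against 0.04, 0.59 and 0.67 at 83 dpf, with a difference of 1.15 ± 0.35 (SE, adjusted p = 0.0806). Its fish did not overlap between the ages, as was also true of 17.6% of all probes.

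**Figure D2:**
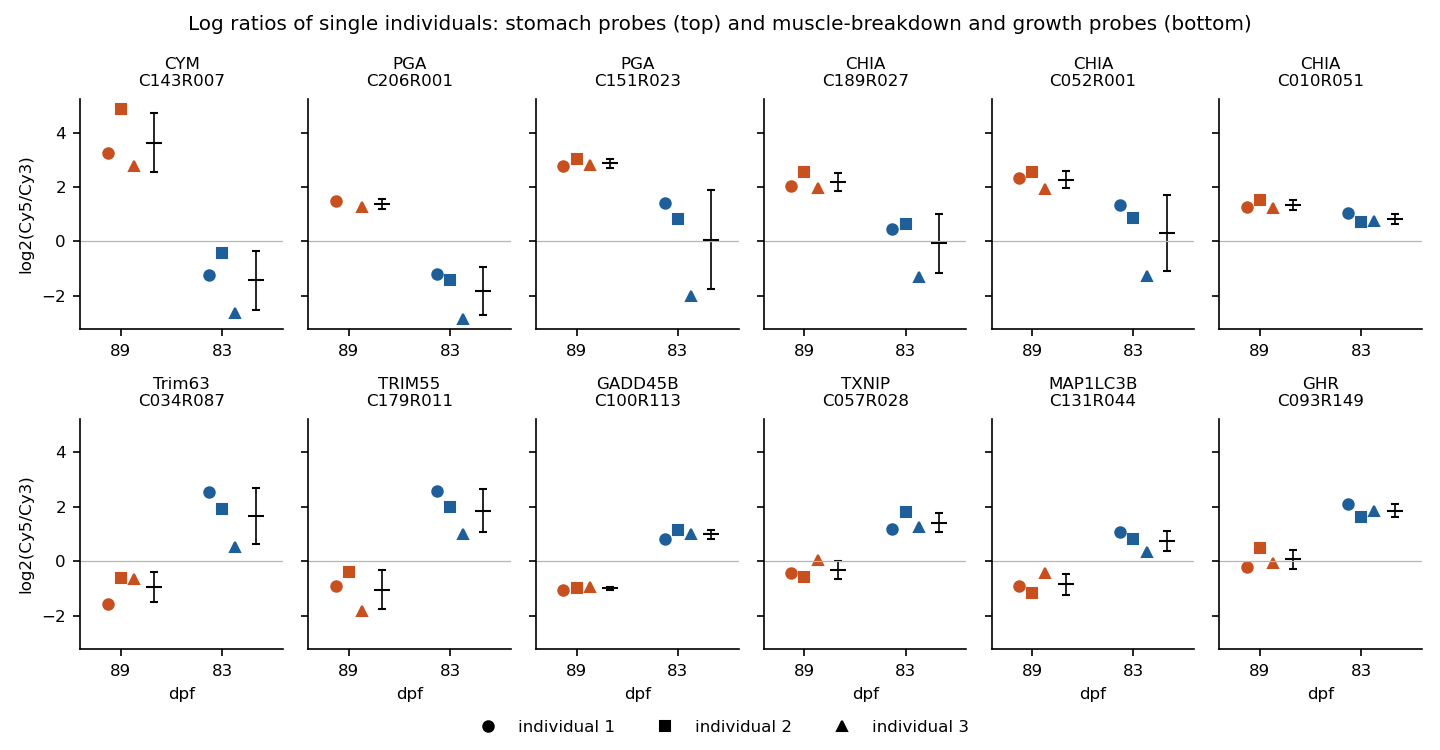
Log2(Cy5/Cy3) of each individual for 6 stomach probes (top) and 6 probes from the list of atrophy ligases, autophagy and FoxO targets (bottom), with 89 dpf on the left in orange and 83 dpf on the right in blue. Markers tell the individuals apart, and the bars give the mean and SD (n = 3 each, n = 2 for pepsin A C206R001 at 89 dpf). Chymosin lay between 2.76 and 4.85 at 89 dpf and between -2.61 and -0.44 at 83 dpf, and GADD45B lay between -1.06 and -0.94 at 89 dpf and between 0.81 and 1.14 at 83 dpf.

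Some folding factors of the secretory pathway were called higher. They were gathered as a list only after the values had been seen, so that neither the list's direction nor its share called carries weight of its own. Of 22 tested probes, 6 rose and none fell (27.3% called, beside 2.88% of described probes), and their median difference was 0.84. Anterior gradient protein 2 (AGR2, C203R084), a disulfide isomerase that mucus-secreting cells of mammals need, had 1.34, 1.26 and -0.05 at 89 dpf, against -1.20, -1.56 and -1.25 at 83 dpf. The ages did not overlap, although 89 dpf individual 3 stood below the other 2 fish of its age, and the difference was 2.18 ± 0.53 (SE, adjusted p = 0.0167). It was not called without individual 1 or 2 of either age (highest adjusted p = 0.147). Canopy homolog 2 (CNPY2, C178R018), a small protein of the endoplasmic reticulum, had -1.84, -0.33 and -1.36 at 89 dpf, against -3.91, -2.83 and -2.85 at 83 dpf. Its difference of 2.02 ± 0.36 (SE, adjusted p = 0.000918) was called whichever array was left out. CNPY2 passed the signal filter through 89 dpf only, where it was higher, and that filter stayed fixed when arrays were left out.

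The prolyl isomerase Fkbp11 (C033R051) rose by 1.67 ± 0.30 (SE, adjusted p = 0.000961), with -1.43, -0.34 and -1.05 at 89 dpf and -3.33, -2.43 and -2.09 at 83 dpf. It too was called without any one of the arrays, and it too passed the signal filter through 89 dpf only, where it was higher. Endoplasmin (HSP90B1, C013R133), the HSP90 chaperone of the endoplasmic reticulum, rose by 1.14 ± 0.30, and 2 probes of the disulfide isomerase PDIA4 (C263R094 and C032R083) rose by 1.14 ± 0.30 and 1.02 ± 0.28 (SE, adjusted p between 0.0296 and 0.0462). A second endoplasmin probe (C044R015) differed by 0.90 ± 0.38 and 3 calreticulin probes by 0.33 to 0.87 without passing the threshold. The count of 6 fell to 2 without 89 dpf individual 1, without 89 dpf individual 2 or without 83 dpf individual 1, and it was also 2 with median centring or with the slide as a fixed block, 1 with limma on the 6 arrays and 0 with the methods' t-test. It was 3 with the Cy5 channel alone or when all 6 arrays had to reach 500.

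Of 24 tested probes for atrophy ligases, autophagy and FoxO targets, 9 fell and none rose (37.5% called, beside 2.88% of described probes). A difference below 0 was found in 20, and the median difference was -1.31. This list too was chosen with earlier results of these data known, so that neither its direction nor its share called carries weight of its own. The 9 were Trim63, both probes of TRIM55, GADD45B, GADD45G, TXNIP, MAP1LC3B, Prodh and GHR, so that 3 of them read muscle ligases. The count was 5 when all 6 arrays had to reach 500, since both TRIM55 probes, Prodh and GHR passed the signal filter through 83 dpf only, where they were high. With 1 fish left out it ranged from 6 to 9, and it was 6 without 89 dpf individual 2 or without 83 dpf individual 1. With individual 1, 2 or 3 left out at both ages, it was 1, 2 and 8. The study's own list for this pair of ages, drawn from the same arrays, holds 9 of these 24 probes, beside 54 of all 13272 tested. It is therefore no independent evidence of their direction, and it helped to decide which probes had a description. The muscle ring-finger ligase TRIM63 (Trim63, C034R087), which marks myosin and other thick-filament proteins for the proteasome, had -1.56, -0.63 and -0.64 at 89 dpf, against 2.56, 1.91 and 0.53 at 83 dpf. All 3 fish of 89 dpf lay below the pool and all 3 of 83 dpf above it. The difference was -2.61 ± 0.47 (SE, adjusted p = 0.000868). A second TRIM63 probe (C210R105) had 1.49, -0.53 and 1.14 at 89 dpf, against 3.87, 2.42 and 2.01 at 83 dpf, and its difference of -2.07 ± 0.63 (SE) missed the threshold (adjusted p = 0.0826).

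Both probes of the related ligase TRIM55 (MuRF2) were lower. Probe C179R011 had -0.91, -0.41 and -1.82 at 89 dpf, against 2.57, 2.01 and 1.00 at 83 dpf. Its Cy5 signal was under 500 on all 3 arrays of 89 dpf, so that the fall is a bound of at least 1.72-fold (adjusted p = 0.00189). Probe C094R135 had -0.06, -0.70 and 0.74 at 89 dpf, against 2.40, 1.81 and 1.52 at 83 dpf, a difference of -1.91 ± 0.50 (SE, adjusted p = 0.0290), and was no longer called without any one of individuals 1 and 2 of either age. FBXO32 (C164R010), picked out after its values were seen because it is the other classic atrophy ligase, had -0.84, -1.04 and -0.57 at 89 dpf, against 3.31, 2.10 and 1.46 at 83 dpf. Its fish did not overlap between the ages, but the probe was not called (adjusted p = 0.0871). It too was under 500 on all 3 arrays of 89 dpf, so that its measured difference is a bound of at least 2.23-fold.

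One autophagy gene of that list fell and others were not called. The light chain MAP1LC3B (C131R044), which coats autophagosome membranes, had -0.92, -1.18 and -0.43 at 89 dpf, against 1.06, 0.82 and 0.35 at 83 dpf, a difference of -1.59 ± 0.27 (SE, adjusted p = 0.000466). The call held without any one of the 6 fish. Light chain MAP1LC3C (C022R040) did not follow, with a difference of 0.57 ± 0.22 (SE, adjusted p = 0.23), and Map1lc3a (C022R063) had one of -1.17 ± 0.42 (SE, adjusted p = 0.19). Sequestosome-1 (Sqstm1, C257R069), a cargo receptor of autophagy, and the lysosomal protease cathepsin L (CTSL1, C138R129) differed by -0.61 ± 0.46 and -1.27 ± 0.36 (SE) and were not called either (adjusted p = 0.77 and 0.0554).

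A further list, of autophagy enzymes and brakes on growth, was drawn up after the values had been seen. In it 6 of 11 tested probes fell and none rose (54.5% called, beside 2.88% of described probes), with a median difference of -1.33. Because of how the list was made, that share carries no weight of its own. The count was 2 with the slide as a fixed block, 3 with no filter on signal, 1 with limma on the 6 arrays and 0 with the methods' t-test. ATG4B (atg4b, C031R165), the protease that primes the light chains, had 0.63, -0.80 and 0.96 at 89 dpf, against 2.53, 1.88 and 1.06 at 83 dpf. The fish of 89 dpf were spread over almost 2 log2 units and individual 3 of the ages nearly met, while the fitted difference was -1.56 ± 0.36 (SE, adjusted p = 0.0111). RB1CC1 (C078R136), a scaffold of the complex that starts autophagy, fell by 1.24 on the log2 scale (SE 0.26, adjusted p = 0.00441). A 4E-binding protein (zgc:56330, C058R042), which holds back translation, fell by 1.33 (SE 0.33, adjusted p = 0.0227), and Ddit4l (C189R090), an inhibitor of TOR signalling, fell by 1.79 (SE 0.37, adjusted p = 0.0035). The transcription factor C/EBP delta fell on both of its probes. Cebpd (C026R028) had 0.21, -0.48 and 0.41 at 89 dpf, against 2.83, 1.89 and 1.09 at 83 dpf, and CEBPD (C044R110) had -0.26, -0.71 and 0.58 at 89 dpf, against 2.0, 1.74 and 1.54 at 83 dpf. Both differed by -1.89 (SE 0.43 and 0.50, adjusted p = 0.00812 and 0.0322), whereas 2 probes of C/EBP beta differed by -0.03 and 0.16 and were not called. None of the 11 probes was called without 89 dpf individual 2, and 1 was without 83 dpf individual 1. Without individual 1 of 89 dpf or individual 2 of 83 dpf, 4 were called.

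Of 3 probes described as GADD45 proteins, 2 were called. GADD45B (C100R113), which halts the cell cycle under stress, had -1.06, -0.97 and -0.94 at 89 dpf, against 0.81, 1.14 and 1.00 at 83 dpf. The SDs within the ages were 0.06 and 0.16, and the difference was -1.97 ± 0.40 (SE, adjusted p = 0.00301). GADD45G (C051R007) had 0.38, -0.18 and -0.02 at 89 dpf, against 2.14, 1.25 and 1.05 at 83 dpf, a difference of -1.42 ± 0.31 (SE, adjusted p = 0.00699), and a second GADD45G probe (C076R046) differed by -1.09 ± 0.42 without being called. C051R007 was not called without 89 dpf individual 2 or 83 dpf individual 1 (highest adjusted p = 0.165). TXNIP (C057R028), which curbs glucose uptake and is a FoxO target in mammals, had -0.44, -0.59 and 0.04 at 89 dpf, against 1.17, 1.82 and 1.26 at 83 dpf. It fell by 1.74 (SE 0.31, adjusted p = 0.000868), and its other probe (C066R101) had a difference of -1.01 ± 0.38 (SE, adjusted p = 0.22).

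The growth hormone receptor (GHR, C093R149) had -0.21, 0.47 and -0.05 at 89 dpf, against 2.10, 1.63 and 1.84 at 83 dpf. The fish of each age lay close together and far from those of the other. The difference was -1.79 ± 0.50 (SE) and the adjusted p 0.0494, just under the threshold, and the call was lost whichever array was left out. Since all 3 arrays of 89 dpf had a signal under 500, the fall is a bound of at least 1.81-fold. No other GHR probe was among those described. Of the binding proteins that carry insulin-like growth factors in blood and tissue, IGFBP6 (C169R049) differed by -1.35 ± 0.47 and igfbp2 (C242R049) by 0.23 ± 0.39 (SE), and neither was called (adjusted p = 0.16 and 0.96).

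The lists of amino acid, sugar and lipid metabolism gave 1 call between them. Prodh (C037R001), the mitochondrial oxidase that starts proline breakdown, had -0.02, 0.44 and 0.47 at 89 dpf, against 2.07, 2.21 and 1.58 at 83 dpf, a difference of -1.66 ± 0.33 (SE, adjusted p = 0.00252). Lipoprotein lipase (LPL, C109R167), which stands in none of these lists and frees fatty acids from blood lipids for muscle and fat, had 0.39, -0.35 and 1.03 at 89 dpf, against 2.63, 2.14 and 1.52 at 83 dpf, a difference of -1.74 ± 0.32 (SE, adjusted p = 0.000937). Both were called without any one of the 6 fish. Prodh was the only one of 18 tested probes for amino acid catabolism and transport that was called (5.56%, beside 2.88% of described probes). The median of that list was -0.19. No probe was called among 25 for glycolysis and gluconeogenesis (median 0.00) or 20 for sterol and fatty acid metabolism (median 0.29).

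The largest falls among described probes belonged to genes of several kinds. The probe described as ribosomal protein S9 (RPS9, C238R112) had -0.53, -1.38 and -0.92 at 89 dpf, against 2.70, 2.45 and 1.36 at 83 dpf, a difference of -3.11 ± 0.44 (SE, adjusted p = 4.77e-05). The probe of ribosomal protein L10a (rpl10a, C048R021) had -1.36, -1.70 and -1.12 at 89 dpf, against 1.20, 1.25 and 0.24 at 83 dpf, a difference of -2.29 ± 0.36 (SE, adjusted p = 0.000127). The rpl10a probe passed the signal filter through 83 dpf only, where it was high. The other 39 of the 41 ribosomal protein probes tested were not called, and the median of all 41 was -0.01. The share called was 4.88%, beside 2.88% of described probes.

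Several further called probes have to do with ubiquitin, a grouping made after the values were seen. They moved in both directions, and the ubiquitin ligase RNF166, given last, was called higher. Ubfd1 (C240R024) had -1.58, -1.05 and -0.53 at 89 dpf, against 2.76, 1.66 and 0.68 at 83 dpf (difference -2.75 ± 0.42, SE, adjusted p = 0.000127), but a second probe with the same description (C194R079) differed by -0.28 ± 0.34 (SE). Zfand5 (C047R079), a zinc-finger protein that activates the proteasome and is induced in wasting mammalian muscle, had -0.99, -1.05 and -0.83 at 89 dpf, against 1.81, 0.83 and 0.08 at 83 dpf, a difference of -1.86 ± 0.34 (SE, adjusted p = 0.000961). The ubiquitin ligase UBE3A (C150R118) fell by 1.41 (SE 0.26, adjusted p = 0.00139). ASB13 (C131R104), a substrate receptor of cullin ligases, had 0.04, -1.15 and -0.33 at 89 dpf, against 1.77, 1.82 and 1.5 at 83 dpf, a difference of -2.18 ± 0.41 (SE, adjusted p = 0.00143), and its other probe (C257R116) differed by -1.60 ± 0.47 with an adjusted p of 0.0623. Few probes of the proteasome itself were called. Of its 54 tested probes, 2 fell (3.7%, beside 2.88% of described probes), and the median was -0.07. The falls were those of PSMD7 (C123R033) by 1.30 and the activator PSME3 (C163R004) by 1.13. Neither was called without individual 1 or 2 of either age (highest adjusted p = 0.217 and 0.195). Ubfd1 C240R024, UBE3A, ASB13 and PSME3 passed the signal filter through 83 dpf only, where they were high.

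Nuclear receptor interaction protein (Iqwd1, C005R133) had -0.65, -1.03 and -0.30 at 89 dpf, against 3.03 and 1.34 in 83 dpf individuals 1 and 3. The spot of 83 dpf individual 2, with a Cy5 signal of 65101.5, was flagged and left out. The difference of -2.85 ± 0.37 (SE, adjusted p = 2.33e-05) thus rests on 2 widely spread fish at 83 dpf (SD 1.19). Its SE draws on the spread at all time points, and its adjusted p was the smallest of the comparison. A second probe with the same description (C063R069) differed by -0.30 ± 0.36 (SE). RGC32, a regulator of the cell cycle, fell on both probes. Probe C152R138 had -1.18, -0.85 and -0.13 at 89 dpf, against 0.98, 1.85 and 1.55 at 83 dpf (difference -2.18 ± 0.34, SE), and C029R118 differed by -1.62 ± 0.37 (SE, adjusted p = 0.000127 and 0.0106), the second losing its call without 89 dpf individual 1 or 2 or 83 dpf individual 2 (highest adjusted p = 0.0584). Both RGC32 probes passed the signal filter through 83 dpf only, where they were high. Kelch domain-containing protein 6 (klhdc6, C121R053) differed by -2.01 ± 0.39 (SE, adjusted p = 0.00201) and its other probe (C166R067) by -0.93 ± 0.30 (SE, adjusted p = 0.116). The small GTPase arl8b (C055R163), which moves lysosomes, fell at least 1.87-fold, being under 500 on all 3 arrays of 89 dpf (adjusted p = 0.00488).

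**Figure D3:**
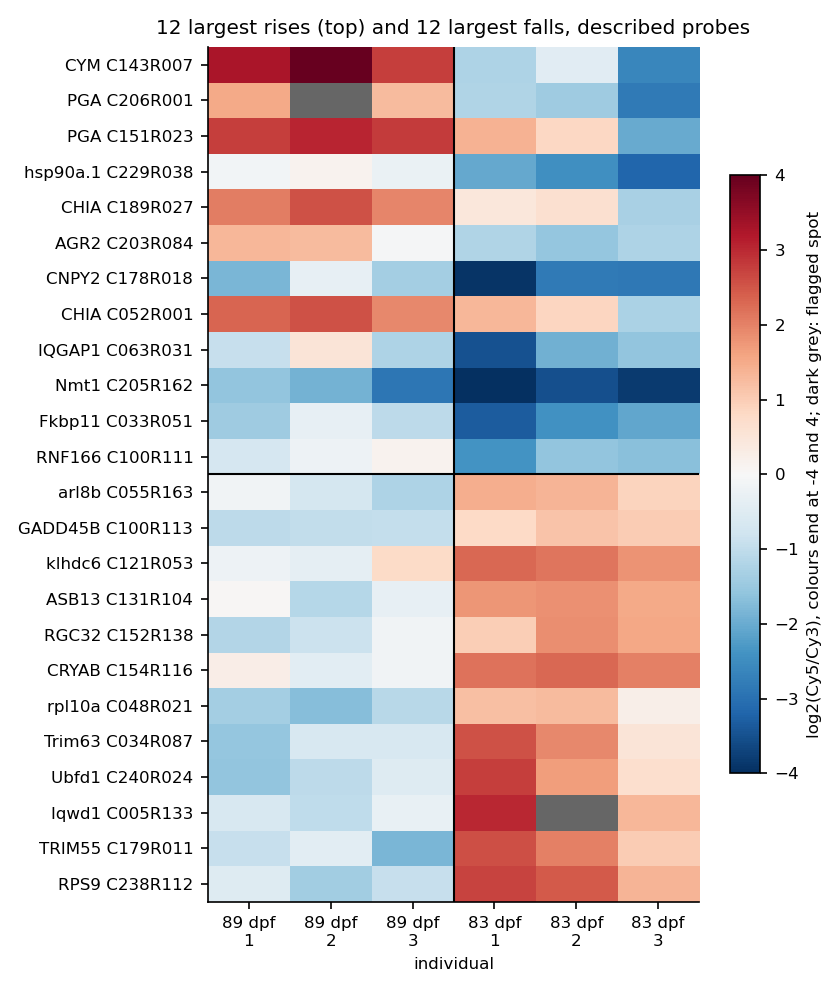
Log2(Cy5/Cy3) of the 12 described probes with the largest rises (top) and the 12 with the largest falls (bottom), 1 row per probe and 1 column per individual, with 89 dpf on the left and 83 dpf on the right. Red stands for values above and blue for values below the reference pool, and dark grey marks a flagged spot. In the falls, 83 dpf individual 3 is often the palest of its age, as for Trim63 with 0.53 beside 2.56 and 1.91.

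Stress proteins moved in both directions. Of 34 tested probes of that list, 5 fell and 1 rose (17.6% called, beside 2.88% of described probes), and the median difference was 0.14. The small heat shock protein alpha-B crystallin (CRYAB, C154R116), abundant in muscle and heart, had 0.27, -0.41 and -0.13 at 89 dpf, against 2.16, 2.31 and 2.01 at 83 dpf. The 3 fish of 83 dpf lay close together and above every fish of 89 dpf, and the difference between ages was -2.25 ± 0.39 (SE, adjusted p = 0.000771). CRYAB passed the signal filter through 83 dpf only, where it was high, with Cy5 signals of 372, 396.5 and 593 at 89 dpf. The other 4 falls were probes described only by the p8 domain of a DNA-binding nuclear protein, and they differed by -1.77, -1.63, -1.59 and -1.29. These 4 share the same domain name and are not among the described probes behind the 2.88%. The 17.6% of this list is therefore not like for like with that share. In the opposite direction, hsp90a.1 (C229R038), in zebrafish the HSP90 form that folds myosin in developing muscle, had -0.10, 0.15 and -0.26 at 89 dpf, against -2.06, -2.44 and -3.18 at 83 dpf. Its rise was 2.49 ± 0.47 (SE, adjusted p = 0.00156), was called without any one of the arrays, and was not seen in a second probe of the same description (C152R041, difference 0.08 ± 0.21, SE). The count of 5 falls was 3 without 89 dpf individual 1 and 2 without 89 dpf individual 2, and it was also 2 with median centring or with the slide as a fixed block.

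The myosin chaperone Unc45b, which works with HSP90 during thick filament assembly, rose too. Probe C160R061 had -0.39, -0.31 and -0.35 at 89 dpf, against -1.74, -2.27 and -1.82 at 83 dpf, a difference of 1.59 ± 0.35 (SE, adjusted p = 0.00613). It passed the signal filter through 89 dpf only, where it was higher. Probe C142R163 had 1.80, 0.46 and 0.89 at 89 dpf, against -0.50, -0.84 and -0.03 at 83 dpf, and its rise is a bound of at least 1.58-fold, since it was under 500 on all 3 arrays of 83 dpf (adjusted p = 0.0445). The first was not called without 83 dpf individual 2, and the second was called only when 83 dpf individual 3 was left out or when no fish was. They were the only called probes among 91 for the sarcomere, the contractile unit of muscle (2.2%, beside 2.88% of described probes). The median difference of the 91 was 0.06. Neither Unc45b probe was called with the slide as a fixed block or with median centring. Titin, nebulin, troponins and telethonin, used as markers of skeletal muscle in a list drawn up after the values had been seen, had no call among 37 probes and a median of 0.05. One of them stood apart. Telethonin (TCAP, C047R007), a protein of the Z-disc, had -0.47, -0.65 and 0.33 at 89 dpf, against 2.53, 2.05 and 2.62 at 83 dpf, and its difference of -2.66 ± 0.78 (SE) was not called (adjusted p = 0.0658). It was singled out after its values were seen.

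Of 19 tested probes for DNA replication and cell division, 3 rose and 1 fell (21.1% called, beside 2.88% of described probes). The median difference of the 19 was 0.58, beside 0.07 among described probes, and 15 had a difference above 0. The mitotic kinase cdc2 (C187R163) had -1.08, -0.18 and -2.0 at 89 dpf, against -2.55, -2.74 and -2.0 at 83 dpf, a difference of 1.34 ± 0.30 (SE, adjusted p = 0.00798). Individual 3 had the same value at both ages, and on the slide they shared cdc2 was the only called probe whose difference had the other sign (-0.01). The mitotic kinesin KIF2C rose on both probes, by 1.26 ± 0.27 (C048R150) and 1.25 ± 0.32 (C187R082, SE, adjusted p = 0.00496 and 0.0262). Both KIF2C probes passed the signal filter through 89 dpf only, where they were higher. The fall was that of FANCF (C135R146), which repairs DNA crosslinks and differed by -1.11 ± 0.25 (SE, adjusted p = 0.00792), not called without 89 dpf individual 1 or 83 dpf individual 2 (highest adjusted p = 0.101). None of the 3 rises of the list was called without 89 dpf individual 2, after median centring, with the slide as a fixed block or with limma on the 6 arrays, and 1 was called without individual 1 or 2 of 83 dpf. The replication protein ORC5L (C255R047), which the list did not hold, rose by 1.06 ± 0.29 (SE, adjusted p = 0.0401). Its call was lost without any single fish other than 89 dpf individual 3.

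Histone H1, which packs chromatin, rose on 2 of the 3 probes described by that name alone, by 1.61 ± 0.39 (C073R129) and 1.23 ± 0.27 (C075R038, SE, adjusted p = 0.0190 and 0.00596), and the third (C148R053) differed by 1.56 ± 0.46 (SE, adjusted p = 0.064). No probe of H1x, H1.0, H2A or H3.3 was called. The median of 18 histone probes was -0.13, and 11.1% were called, beside 2.88% of described probes. Both H1 calls were lost with the slide as a fixed block, with median centring, and without 89 dpf individual 2 or 83 dpf individual 1 (highest adjusted p = 0.187 for C073R129 and 0.0893 for C075R038). C073R129 passed the signal filter through 89 dpf only, where it was higher. Microsomal glutathione S-transferase 3 (MGST3), a membrane enzyme of detoxification, rose on 2 probes by 1.22 ± 0.28 (C194R003) and 1.28 ± 0.35 (C140R122, SE, adjusted p = 0.0108 and 0.0383). They were the only calls among 30 probes of xenobiotic metabolism (6.67%, beside 2.88% of described probes). Neither was called with the slide as a fixed block, with median centring, or without 89 dpf individual 1 or 2 or 83 dpf individual 1 (highest adjusted p = 0.200 and 0.518). The mitochondrial protein ES1 (C21orf33) rose on 3 probes by 1.25, 1.28 and 1.31 (SE 0.28 to 0.34, adjusted p between 0.00812 and 0.0274), none of them called without 89 dpf individual 1 or 2. Probe C011R096 of ES1 had 2.07, 1.93 and 1.51 at 89 dpf, against 0.58, 0.87 and 0.31 at 83 dpf, with no overlap.

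Markers of other tissues, with a liver list drawn up after the values had been seen, gave few or no calls. There were none among 23 probes for red cells and heme synthesis (median 0.07), 26 for collagen and skeleton (0.22), 50 for innate and adaptive immunity (0.20), 17 for lens and photoreceptors (0.21), 8 for liver (0.42), 3 for the circadian clock (-0.66) and the single one for egg coat and yolk proteins (0.24). The nearest to a call was cryptochrome-1 (CRY1, C168R134), a repressor of the clock, with -0.04, 0.23 and 1.30 at 89 dpf, against 1.66, 1.68 and 2.13 at 83 dpf (difference -1.33 ± 0.38, SE, adjusted p = 0.0556). Among 83 probes of mitochondrial respiration, 1 fell (1.2%, beside 2.88% of described probes), with a median of 0.11. It was SDHB (C165R163) of succinate dehydrogenase, by 1.18 (SE 0.30, adjusted p = 0.0273). SDHB was not called without individual 1 or 2 of either age (highest adjusted p = 0.173). The glycolytic enzyme GAPDH (C151R165) was not called (adjusted p = 0.118). It was under 500 on all 3 arrays of 83 dpf, and its measured difference is a bound of at least 2.84-fold.

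**Figure D4:**
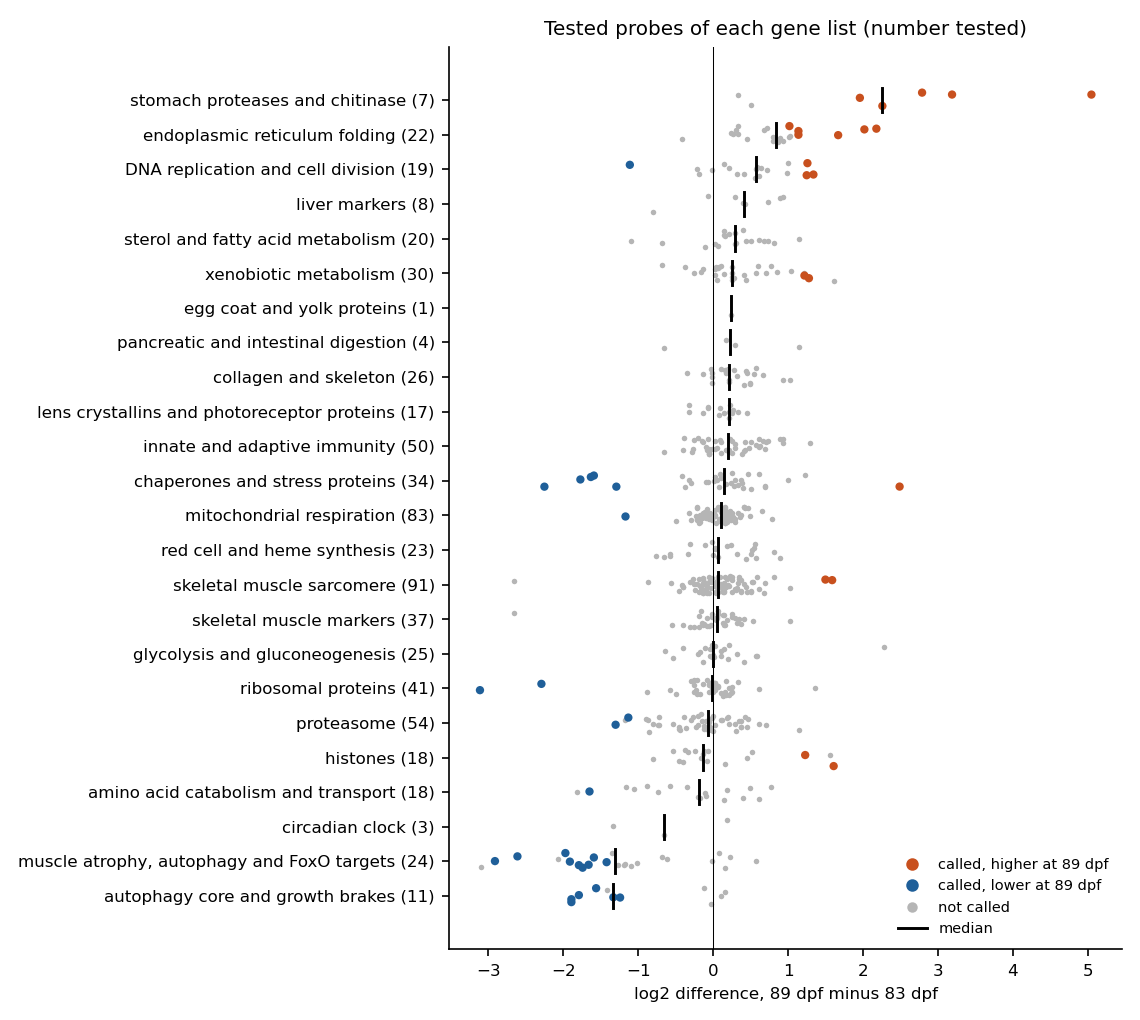
Log2 difference (89 dpf minus 83 dpf, x axis) of every tested probe of each gene list, 1 row per list, with the number of probes tested in parentheses and the median as a black bar. Orange points were called higher and blue points called lower at 89 dpf, grey points were not called. The median was 2.26 for the stomach list and -1.31 for the list of muscle atrophy, autophagy and FoxO targets, while those of the ribosome, the sarcomere and respiration lay at -0.01, 0.06 and 0.11.

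The pair 77 and 83 dpf and the pair 83 and 89 dpf share the same 83 dpf arrays, so that the values are given side by side only. Probes called lower at 89 dpf were chosen for high values on those arrays, which favours a maximum at 83 dpf, and 115 of the 156 had there their highest mean of the 17 time points. Nothing is read from that count. Trim63 (C034R087) had means of -0.45, 1.67 and -0.94 at 77, 83 and 89 dpf. Means of RPS9 (C238R112) at the same ages were -0.37, 2.17 and -0.94, those of CRYAB (C154R116) 0.15, 2.16 and -0.09, and those of GHR (C093R149) 0.34, 1.86 and 0.07. In these 4 probes 83 dpf had the highest mean of the whole series.

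Single fish of 77 dpf already had high values in some of these probes. TRIM55 (C179R011) had 1.80, 0.50 and 0.28 in the 3 fish of 77 dpf, Cebpd (C026R028) had 1.72, -0.32 and -0.75, and telethonin (C047R007) had 3.25, 0.50 and -0.73. In each of these it was 77 dpf individual 1 that reached the level of the 83 dpf fish. Among the 54 described falls, 15 had their highest mean at a day other than 83 dpf. GADD45B (C100R113) was among them, with its highest mean at 5 dpf.

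Of the 74 probes called higher at 89 dpf, which were chosen on these arrays in the same way, 27 had at 83 dpf their lowest mean of all 17 time points, and 23 had at 89 dpf their highest. Chymosin (C143R007) had means of -0.36, -1.43 and 3.62 at 77, 83 and 89 dpf and its highest mean at 89 dpf. Pepsin A-4 (C151R023) had -0.19, 0.07 and 2.87, and chitinase C189R027 had 0.38, -0.07 and 2.19, and both were likewise highest at 89 dpf. Pepsin A C206R001, with 0.38, -1.82 and 1.37, was highest at 71 dpf instead. The probe of hsp90a.1 (C229R038) had -2.13, -2.56 and -0.07, so that it was low at 77 dpf as well, and its highest mean was at 41 dpf.

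**Figure D5:**
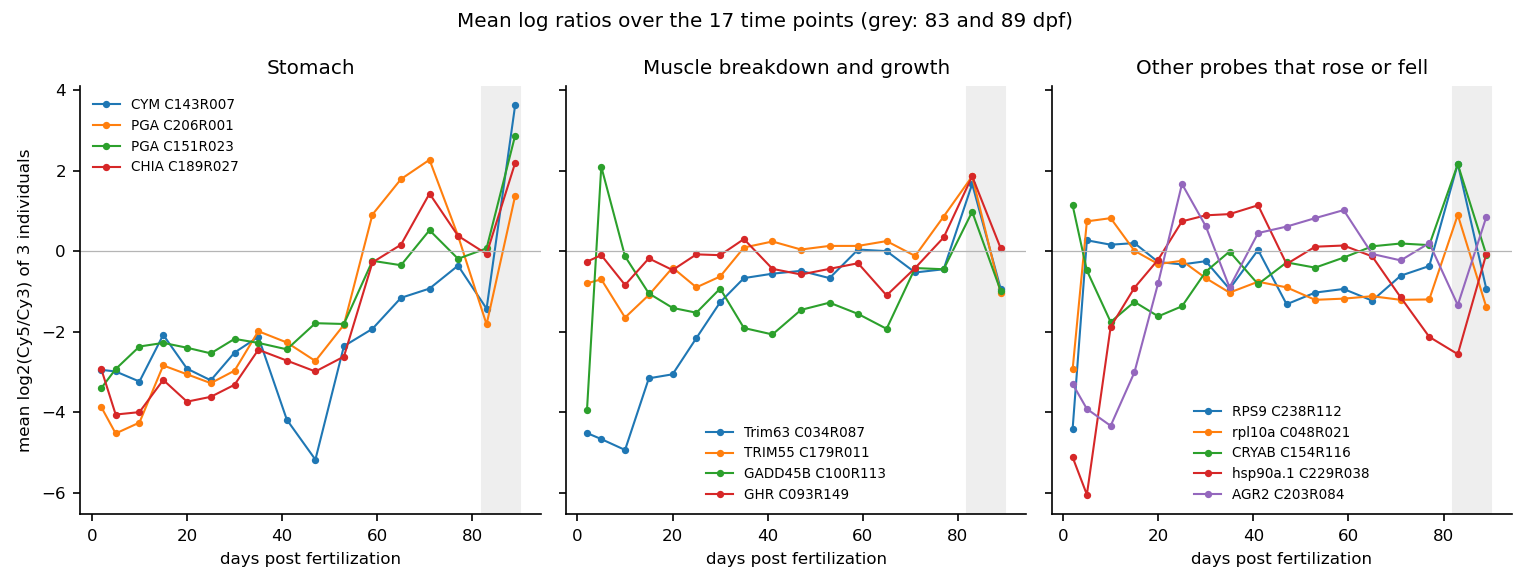
Mean log2(Cy5/Cy3) of the 3 individuals (y axis) at each of the 17 time points (x axis, days post fertilization), with 83 and 89 dpf shaded in grey. Shown are 4 stomach probes (left), 4 probes from the list of atrophy ligases, autophagy and FoxO targets (middle) and 5 other probes (right). Chymosin reached a mean of 3.62 at 89 dpf, and Trim63 and GHR reached 1.67 and 1.86 at 83 dpf.

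The remaining named rises were read on single probes. RNF166 (C100R111), a ubiquitin ligase, rose by 1.64 ± 0.44 and one of 2 probes of the scaffold protein IQGAP1 (C063R031) by 1.79 ± 0.47 (SE, adjusted p = 0.0344 and 0.0318), the other IQGAP1 probe (C009R056) differing by 0.04. IQGAP1 C063R031 passed the signal filter through 89 dpf only, where it was higher. The myristoyltransferase Nmt1 (C205R162) rose at least 1.91-fold, as it was under 500 on all 3 arrays of 83 dpf (adjusted p = 0.0241). Of the 24 described probes with the largest rises and falls, 17 were called whichever array was left out. The 7 others were both CHIA probes, pepsin A C206R001, AGR2, IQGAP1, Nmt1 and RNF166, all of them rises. Over all 94 called probes with a description or a domain name, the call held in 29 whichever array was left out. The 140 called probes without a gene description, 38 higher and 102 lower, include the p8 domain probes that are also counted in the 94. Their largest rises included C104R073, with a difference of 4.07 that rested on a single fish at 89 dpf because 2 spots were flagged. Another was C228R001 with 2.81 ± 0.76 (SE). C228R001 was under 500 on 1 of the 3 arrays of 83 dpf and passed the signal filter through 89 dpf only, where it was higher. Among the falls was C198R040 at -3.19 ± 0.73 (SE), under 500 on 2 of the 3 arrays of 89 dpf. It passed the signal filter through 83 dpf only, where it was high. C225R100 was called lower as well, but no fold is given because its signal was under 500 on all 3 arrays of 89 dpf. The fish of C225R100 also overlapped, with 0.70 in 89 dpf individual 1 against 0.56 in 83 dpf individual 3.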

How the data were processed

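The authors quantified the scans with ImaGene and deposited, per array, flags and background-corrected median intensities of Cy5 and Cy3. The method of background correction is not given in the sources used here. A second deposited file holds the authors' log2 ratios (signals raised to at least 1, Lowess, each probe centred on its median over all arrays), used here as an alternative. The 89 minus 83 dpf differences from both sources correlated across probes with r = 0.996. Samples were grouped by the age in their labels, and slides came from the names of the scanner files.

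From the intensities, log2(Cy5/Cy3) was computed after raising signals to at least 1 and normalized by loess within arrays with limma 3.58.1 in R 4.3.3. Flagged spots had weight 0, and the 1531 spots of controls did not enter. Each probe is 1 spot. A single fit (lmFit and eBayes) of all 51 arrays had a mean per time point, p-values were adjusted by Benjamini-Hochberg over 13272 probes, and the fit was tested on simulated data. The bounds use the higher of a probe's signal and the lowest signal of at least 500 on each array, per channel after loess and Aquantile normalization, and dye bias stays in them as dyes were not swapped. The number of arrays limits the precision.

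Names came from the study's Additional files, of which the first was used for its first 1999 of 2725 rows only. The named probes were the 12 largest rises and the 12 largest falls among called, described probes with no overlap, every called probe of a list (or the one with the smallest p), all stomach and GHR probes, and other probes of the same description. The comparison, members and lists were chosen with earlier results of these data known. The alternatives were median centring, Cy5 alone, other filters, flags and floors, the deposited values, the methods' t-test, limma on 6 arrays, other thresholds, blocks of replicate number or slide, and arrays left out. The signal filter was not applied anew when arrays were left out.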

Additional observations from a re-analysis of the deposited data

How the results depend on the processing

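The main setting called 230 probes, 74 higher and 156 lower at 89 dpf. Median centring in place of loess called 129, 17 of them higher, so that 13.2% of calls were higher in place of 32.2%, and the median of all probes was -0.07. Called probes numbered 132 (39 higher, 93 lower) when all 6 arrays had to reach 500, 125 (33 higher, 92 lower) with no filter, 93 (27 higher, 66 lower) with limma on the 6 arrays, 103 (29 higher, 74 lower) with the slide as a fixed block, and 414 (146 higher, 268 lower) at an unadjusted p of at most 0.01. The methods' t-test called 67 (21 higher, 46 lower) at their threshold, and 0 after Benjamini-Hochberg adjustment (0 in either direction, smallest adjusted p 0.0769), with 904 probes at an unadjusted p under 0.05. Leaving out a replicate number or a single array gave between 27 and 316 calls, 7 to 101 higher and 19 to 217 lower. The Cy5 channel alone (181), probes bright at any time point (197), flagged spots kept (227), signals raised to at least 50 (261), the deposited values (227), no minimum fold change (259) and the slide as a random block (264) stayed within 1.5 times the main count. Differences that changed sign were those of IQGAP1 C009R056 (-0.04 with median centring, -0.01 with Cy5 alone, between -0.25 and 0.34 with a replicate number left out, -0.06 without 89 dpf replicate 1, -0.15 without 83 dpf replicate 1), ZPLD1 C106R028 (-0.07 with the slide fixed), hsp90a.1 C152R041 (-0.04 with median centring, -0.03 with the slide fixed), UBFD1 C194R079 (0.00 without replicate 1, otherwise down to -0.49) and, among called probes, cdc2 C187R163 (-0.01 on the shared slide). The cause was not tested. Deviations of same-numbered fish from the means of their ages correlated with r = 0.426, 0.023 and 0.145 for individuals 1, 2 and 3. Between fish of different numbers, r ran from -0.363 to 0.22. The first individuals, with the highest r, were those on the dimmer arrays, and whether this or a pairing of the fish lay behind it was not tested. With a replicate block, 235 probes (84 higher) were called in a fit of the 6 arrays and 276 (92 higher) in a fit of all arrays, and the lists of atrophy and FoxO targets had 14 and 10 falls. Signals near 500 and 3 fish per age limit what could be detected.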
